A study of Caenorhabditis elegans with 3 samples.

Results

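The nuclear pore complex is the channel through which RNA and proteins pass between nucleus and cytoplasm. It is built of nucleoporins, which in C. elegans carry the gene name npp, and it is crossed by carriers: importins (imb, ima) bring proteins in, exportins (xpo) take cargo out, and the NXF factors (nxf) take out mRNA. The small GTPase Ran (ran) gives the traffic its direction, because its GTP-bound form is kept high in the nucleus, where it releases import cargo and loads export cargo. In the worm germ line, pores lie under germ granules, and in early embryos the nuclear envelope and its pores are taken apart and rebuilt at each division from maternally supplied parts.

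The genes described here are all those with 1 of the prefixes npp, imb, ima, ran, xpo, nxf or nxt in their symbol, on array features that name a single gene. The rule used no measured values, but it was set with earlier results of these data known. There were 35 such genes, on 36 features, of 15168 genes with a single-gene feature. RefSeq lists 44 C. elegans genes with these prefixes, and the other 9 (imb-1, imb-3, xpo-2, nxt-1, npp-8, npp-13, npp-20, npp-22 and npp-25) were not analysed here.

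The samples were 3 preparations of RNA, numbered 1 to 3, of adult hermaphrodites with embryos, which the labels name TP10. Each was hybridised on its own two-colour array against the same kind of RNA, a wild-type mixed reference. The labels give no genotype or treatment for TP10, no age, and no account of what was mixed in the reference. They do not say that the preparations came from separate cultures, so the p-values reflect how far the preparations lie apart, and that spread may be technical.

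Values are log2 ratios of TP10 over the reference, after centring each array on its median, and a log2 ratio of 1 is a 2-fold difference. No dye is named, so this direction is likely, from the order in which the descriptions name the 2 RNAs, but not settled; with the table turned round, every "higher" would read "lower". Each gene's mean was tested against 0 with limma across all 19300 genes and unnamed features of the table, with Benjamini-Hochberg adjustment and a threshold of 0.05. A two-colour ratio compares 1 gene between 2 RNAs and gives no level of one gene against another. Whole animals were used, so more cells of a type and more RNA per cell cannot be told apart.

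Over the 19300, the 3 arrays correlated with Pearson's r of 0.850 to 0.898, across genes, and array 3 had the narrowest spread (SD 0.67 log2, against 0.89 and 0.85 on arrays 1 and 2). The label was compared with tissue markers. Germ line markers were higher in 6 of 6 cases (medians of 2.63, 2.53 and 1.92 log2 on arrays 1, 2 and 3), and markers of oocytes and early embryos in 7 of 8 (medians of 2.12, 1.92 and 1.47), with egg-1 not past the threshold at -0.23. Of 8 sperm markers 3 were lower, and of 8 neuronal markers 6 were lower. Of 7 muscle markers 2 were higher, and of 8 intestinal markers 2 were higher and 3 lower. Of 7 cuticle markers 1 was higher (col-19, the adult collagen, at 1.97) and 5 lower. Over all genes and features, 22% were called higher and 21.9% lower. The counts of higher muscle and intestinal markers lay near that share. The germ line and oocyte markers lay on the same side of 0 as most of the genes described below, and had their smallest medians on array 3 too; their part in the results was not tested.

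Genes of the nuclear pore and its carriers were higher in TP10 than in the reference, with few exceptions. Of 34 tested members, 30 were higher (22% of all genes and features were called higher), none was lower by limma (21.9% of all were called lower; 1 member, ran-2, was lower at an unadjusted p under 0.05) and 4 did not pass the threshold. By an unmoderated one-sample test, which has 2 residual degrees of freedom, 0 members passed (1 of the 19300 did), while 28 of the 34 had an unadjusted p under 0.05, beside 35.4% of all. The median of the members was 1.05 log2, or 2.06-fold, beside 0.01 over all genes and features, and the quartiles of the members were 0.84 and 1.42, against -0.35 and 0.36 for all. A mean of at least 2-fold with a passed test was found for 21 members (8.29% of all). On the 3 arrays, 31 members were above 0 throughout (33.8% of all).

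**Figure D1:**
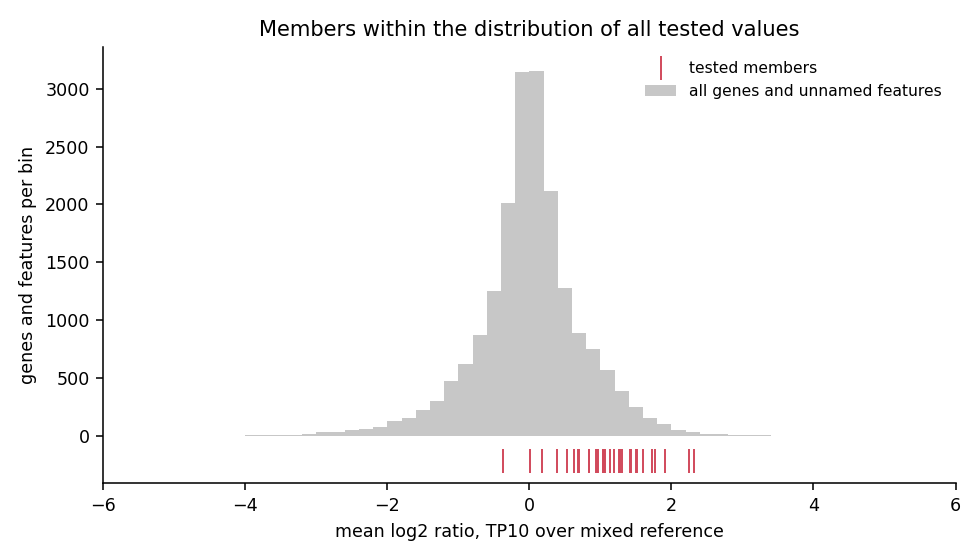
Histogram of the mean log2 ratio (horizontal axis) of all 19300 genes and unnamed features, in counts per bin of 0.2 log2 (vertical axis), with a red tick under it for each of the 34 tested members. The ticks run from -0.37 to 2.32 and only 1 lies below 0, while the histogram is centred at 0.01.

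The scaffold of the pore is formed by the Y complex, which coats the nuclear membrane, and by the inner ring, which lines the channel. All 7 tested Y complex genes were higher (22% of all genes and features were), with means from 0.54 to 2.24 log2. npp-10, which encodes a precursor of both Nup98 and Nup96, read 2.62, 2.31 and 1.80 log2 on arrays 1, 2 and 3. All 3 values exceeded those of every other Y complex gene on the same array. Its mean was 2.24 ± 0.42 (SD, n = 3), or 4.73-fold, with an adjusted p of 1.04e-05, and it ranked 83rd among the 19300.

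The next Y complex gene was npp-15, the Nup133 gene, with 1.92, 1.22 and 1.38 on the 3 arrays (mean 1.51 ± 0.37, adjusted p = 6.96e-05). npp-6 (Nup160) averaged 1.26 ± 0.22, npp-2 (Nup85) 1.07 ± 0.07 and npp-5 (Nup107) 1.04 ± 0.27 (SD, n = 3), and these 3 differed by less than the spread between arrays of npp-5. npp-23 (Nup43) and npp-18 (Seh1), both of the short arm of the Y, had the smallest ratios of the complex, at 0.68 ± 0.25 (adjusted p = 0.00440) and 0.54 ± 0.15 (adjusted p = 0.0116). The npp-18 call ended without preparation 2 (adjusted p = 0.0806).

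In the inner ring 2 of 4 genes had a feature. npp-3, the Nup205 gene, read 2.28, 1.89 and 1.57 log2, with a mean of 1.91 ± 0.35, 3.77-fold (adjusted p = 1.70e-05). npp-19, which encodes the Nup35 homologue that touches the membrane, read 1.07, 1.22 and 0.62, with a mean of 0.97 ± 0.32 (SD, n = 3; adjusted p = 0.000742). The lowest npp-3 value lay above the highest npp-19 value. npp-12, the gp210 gene and the 1 tested nucleoporin that spans the membrane, averaged 1.30 ± 0.14, or 2.47-fold (adjusted p = 6.26e-05).

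The central channel is filled by nucleoporins rich in phenylalanine-glycine repeats, which form the barrier that carriers cross. npp-11, the Nup62 gene, had the steadiest value of all members, 1.82, 1.76 and 1.73 log2 on the 3 arrays. Its SD of 0.05 was the smallest among the 34, its mean was 1.77 and its adjusted p was 1.04e-05. Its partners npp-4 (Nup58) and npp-1 (Nup54) averaged 1.43 ± 0.30 and 0.95 ± 0.18 (SD, n = 3). The values of npp-11 lay above all 3 of each partner, while npp-4 on array 1 (1.09) fell within the range of npp-1.

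On the cytoplasmic side stand the filaments, where exported mRNA and protein leave the pore. npp-9, which encodes the Nup358 homologue, a large Ran-binding protein, gave the highest mean of all members. It read 2.42, 2.55 and 1.98 log2, which was above npp-10 on arrays 2 and 3 and below it on array 1. The mean of 2.32 ± 0.30 (SD, n = 3) was 4.98-fold, with an adjusted p of 5.11e-06 and rank 68 among the 19300. npp-14 (Nup214) averaged 1.41 ± 0.17. Its partner npp-24 (Nup88) read 0.62, 1.04 and 0.42, below npp-14 on every array, with a mean of 0.69 ± 0.32 (adjusted p = 0.00533) whose call ended without preparation 2 (adjusted p = 0.0608).

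The nuclear basket faces the chromatin. All 3 of its genes were higher (22% of all genes and features were). npp-7, the Nup153 gene, read 1.61, 2.12 and 1.06 log2 and had the largest SD of the members, 0.53, around a mean of 1.59 (adjusted p = 0.000122). npp-21, which encodes the homologue of Tpr, averaged 1.20 ± 0.20, and npp-16 (Nup50) 1.13 ± 0.12 (SD, n = 3). npp-16 was the 1 member with a pair of features; as deposited they read 1.13, 1.37 and 0.90 and, for the other, 1.10, 1.18 and 1.15, so they differed by at most 0.25 log2 on an array.

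Of the remaining nucleoporin genes, npp-27 averaged 0.63 ± 0.11 (adjusted p = 0.00443) and npp-26 0.39 ± 0.27 (SD, n = 3; adjusted p = 0.0629). npp-26 read 0.68, 0.14 and 0.36, above 0 on each array, and was the 1 nucleoporin gene of 21 that did not pass.

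**Figure D2:**
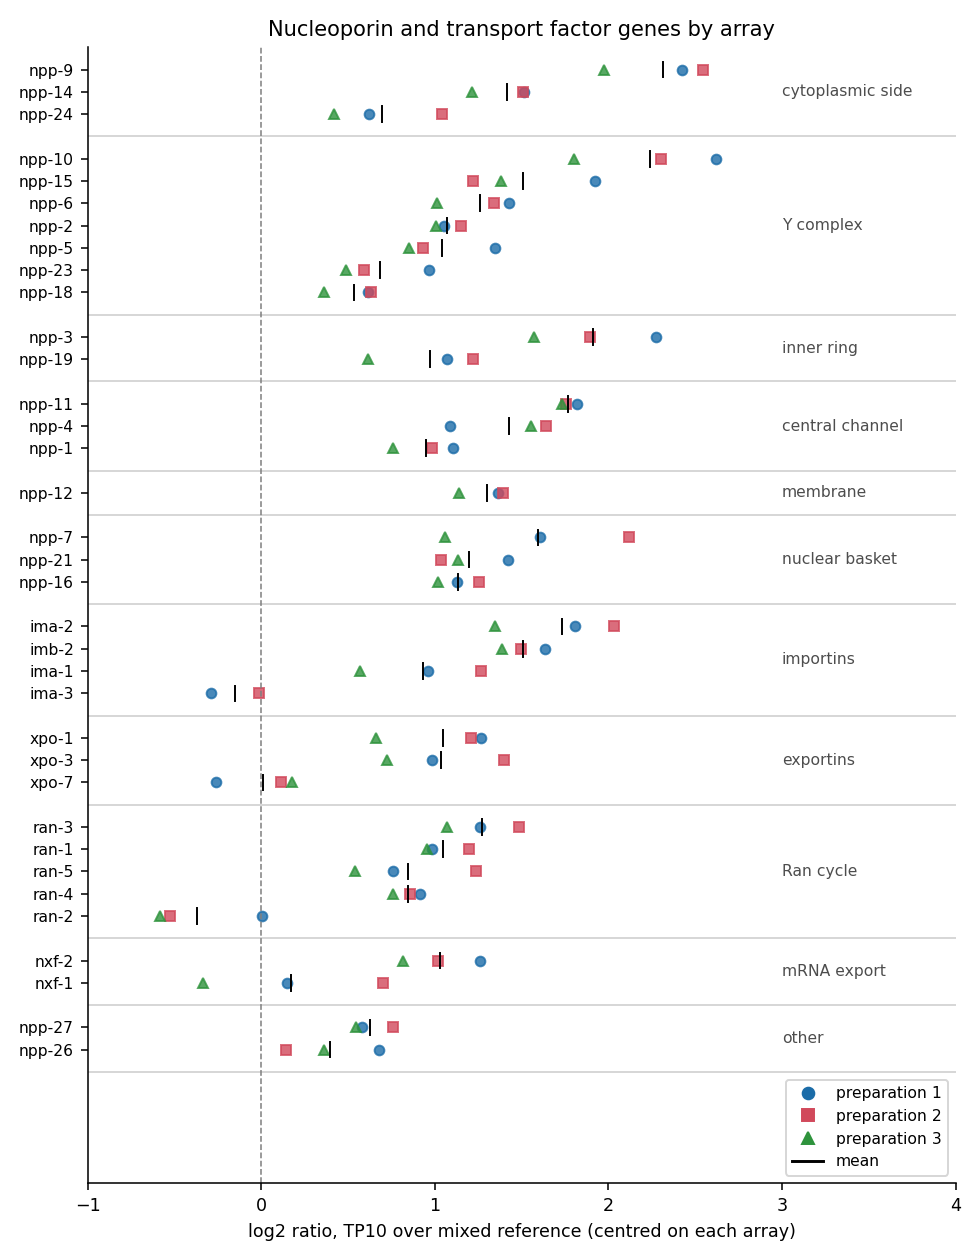
Log2 ratio of TP10 over the mixed reference (horizontal axis) for the 35 genes (rows, grouped by role), with a circle, a square and a triangle for preparations 1, 2 and 3 and a black bar for the mean. Most rows lie right of 0, with npp-9 and npp-10 farthest; ran-2, ima-3, xpo-7 and nxf-1 lie around or left of 0.

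Among carriers, all 3 tested importin genes were higher (22% of all genes and features were), while ima-3, not in the main test, read below 0 on 2 arrays. Importin alpha proteins bind the classical import signal and hand it to importin beta, and worms have 3 of them: ima-1 and ima-2 are known for expression in the germ line, ima-3 also for expression in somatic tissue. ima-2 read 1.81, 2.03 and 1.35 log2, with a mean of 1.73 ± 0.35, 3.32-fold (adjusted p = 2.96e-05). ima-1 read 0.96, 1.26 and 0.57, with a mean of 0.93 ± 0.35, 1.91-fold (SD, n = 3; adjusted p = 0.00112). ima-3 had values on 2 arrays, -0.29 and -0.01, and none on array 3. As deposited, before centring, its array 2 value was 0.0043, so its sign there comes from the centring.

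ima-1 and ima-2 both lay above ima-3 on each array where ima-3 was read. With values on at least 2 arrays required in place of 3, ima-3 had a mean of -0.15 and did not pass (adjusted p = 0.558). imb-2, which encodes transportin, a carrier that binds its cargo without importin alpha, read 1.63, 1.50 and 1.39, with a mean of 1.51 ± 0.12, 2.84-fold (SD, n = 3; adjusted p = 2.70e-05).

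Of 3 exportin genes, 2 were higher (22% of all genes and features were). xpo-1, the worm CRM1, which exports proteins with leucine-rich signals, averaged 1.05 ± 0.33 log2 (adjusted p = 0.000513). xpo-3, whose vertebrate homologue exports tRNA, averaged 1.04 ± 0.34 (SD, n = 3; adjusted p = 0.000558). xpo-7 read -0.26, 0.11 and 0.18, on either side of 0, with a mean of 0.01 and a 95% interval of -0.32 to 0.35 (adjusted p = 0.962). The top of that interval lay below the lowest value of xpo-1 and of xpo-3 on any array (0.66 and 0.73).

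Of 5 Ran cycle genes, 4 were higher (22% of all genes and features were) and ran-2 did not pass. ran-1 encodes Ran itself and read 0.98, 1.20 and 0.96 log2 (mean 1.05 ± 0.13, adjusted p = 0.000222). ran-3 encodes RCC1, the exchange factor that charges Ran with GTP at chromatin, and read 1.26, 1.49 and 1.07 (mean 1.27 ± 0.21, adjusted p = 9.00e-05). ran-2 encodes RanGAP, which makes Ran hydrolyse its GTP in the cytoplasm, and read 0.01, -0.53 and -0.58.

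ran-2 was thus at 0 on array 1 and below it on the others, and lay under every other member tested on arrays 2 and 3. Its mean was -0.37 ± 0.32 (SD, n = 3) with a 95% interval of -0.73 to -0.01 before adjustment, and it did not pass (adjusted p = 0.0929). It passed as lower without preparation 1 (-0.55, adjusted p = 0.0165) and with array weights (-0.45, adjusted p = 0.0276). It also passed when the 10% of genes with the highest SD were left out (adjusted p = 0.0236). That setting drops genes by the same SD that the test uses as error, so its p-values tend to be too small. For npp-9 it gave an adjusted p of 1.30e-55, against 5.11e-06 in the main fit. Over all alternatives the adjusted p ran from 0.0165 to 0.365. ran-4 encodes NTF2, the carrier that returns Ran to the nucleus, and averaged 0.84 ± 0.08 (adjusted p = 0.000734). ran-5 averaged 0.84 ± 0.36 (adjusted p = 0.00210).

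For bulk mRNA export, nxf-1 encodes the general receptor and nxf-2 a relative implicated in the export of tra-2 mRNA. nxf-2 read 1.26, 1.02 and 0.81 log2, with a mean of 1.03 ± 0.22 (SD, n = 3; adjusted p = 0.000332). nxf-1 read 0.15, 0.70 and -0.33, crossing 0, with a mean of 0.17, a 95% interval of -0.26 to 0.60 and an adjusted p of 0.515. Without preparation 2 its mean was -0.094.

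Related members were compared within each array, as the difference of their log2 ratios; 5 of 9 planned pairs had values for both genes. ima-1 minus ima-2 was -0.85, -0.77 and -0.78, so ima-1 was lower on all 3 arrays by a nearly constant amount (mean -0.80 ± 0.04, SD, n = 3). nxf-2 minus nxf-1 was 1.11, 0.32 and 1.15 (mean 0.86 ± 0.47), above 0 on all 3. An exact two-sided sign-flip permutation test gave p = 0.25 for both pairs, which is the smallest p that 3 arrays allow (0.625 after adjustment over the 5 pairs).

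xpo-3 minus xpo-1 was -0.28, 0.19 and 0.06, with a mean of -0.01 and no common sign (exact sign-flip permutation p = 1). On the 2 arrays with ima-3, ima-1 minus ima-3 was 1.25 and 1.28, and ima-2 minus ima-3 was 2.10 and 2.05. Each of these had an exact permutation p of 0.5, the smallest that 2 arrays allow. The members of a pair are paralogues, and whether their features cross-hybridise was not tested.

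**Figure D3:**
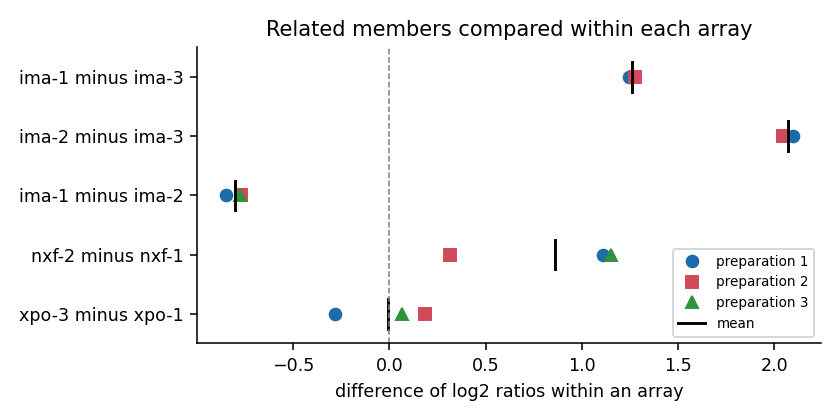
Difference of log2 ratios within an array (horizontal axis) for the 5 measured pairs of related genes (rows), with a circle, a square and a triangle for preparations 1, 2 and 3 and a black bar for the mean. The pair of ima-1 and ima-2 is tight at -0.80, both ima-3 pairs lie above 1 and xpo-3 minus xpo-1 straddles 0.

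The values of members were similar from array to array: across the 34 tested members, which share the reference and the array design, Pearson's r was 0.85 for arrays 1 and 2, 0.90 for 1 and 3 and 0.86 for 2 and 3. For their order, Spearman's rho was 0.79, 0.91 and 0.83 for the same pairs. The size was smaller on array 3. The member median was 1.11, 1.22 and 0.90 log2 on arrays 1, 2 and 3. On array 3, the array with the narrowest spread over all genes, 29 of 34 members had their lowest value. The share of all genes with their lowest value there was not counted, so whether this is particular to the members is not known. The median SD of a member between arrays was 0.26, close to the 0.23 over all genes and features. The members' means spread more widely than this, with an SD of 0.58 between them, but less than the means of all genes and features (SD 0.77).

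By position, 9 of the 35 genes lie on chromosome I, 8 on II, 7 on III, 6 on IV, 5 on V and none on X, which holds 15.02% of the tested genes with a known chromosome. All 9 tested members on I and all 8 on II were higher, 6 of 7 on III, 4 of 5 on IV and 3 of 5 on V. The member medians were 1.41, 1.12, 1.13, 0.68 and 0.93 log2 in that order, beside medians of 0.10, 0.05, 0.17, 0.01 and -0.08 for all tested genes of the same chromosomes. The share of all genes called higher was 32.1%, 25.8%, 35.3%, 23.7% and 14.1% in the same order. npp-15 and ran-2 neighbour each other in the RefSeq gene order of assembly WBcel235, yet stood at 1.51 and -0.37.

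Other genes of the nuclear envelope and of traffic through it were taken from 4 lists, chosen by textbook role. The choice was made with earlier results of these data known. Over all genes and features, 22% were called higher and 21.9% lower. Of 13 measured genes of mRNA export and cap binding, 11 were higher, and the list median was 0.80 log2. None was lower by limma, or by the unmoderated test; 1, aly-1, was lower at an unadjusted limma p under 0.05. ddx-19, which encodes the RNA helicase that acts at the cytoplasmic face of the pore, read 2.00, 2.08 and 1.49 (mean 1.86 ± 0.32). aly-2, an mRNA export adaptor gene, averaged 1.40 ± 0.35, and thoc-7, of the THO complex, 1.27 ± 0.25 (SD, n = 3). aly-1, chosen after its value was seen, read -0.40, -0.17 and -0.44 and did not pass (adjusted p = 0.0836), although aly-1 and aly-2 are paralogues.

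Of 17 measured genes of the nuclear envelope and lamina, 15 were higher and 1 was lower (22% and 21.9% of all genes and features). The list median was 1.05 log2. The remaining gene, anc-1, named after its value was seen, stood at -0.40 (adjusted p = 0.0657). It was lower at an unadjusted p under 0.05, and it passed as lower when quantile-normalized (adjusted p = 0.0438). It also passed without the 10% of genes of highest SD (adjusted p = 0.0126), a setting whose p-values tend to be too small. mel-28, which encodes ELYS, the nucleoporin that seeds pore assembly on chromatin, read 1.98, 2.02 and 1.54 (mean 1.85 ± 0.27, 3.60-fold, adjusted p = 1.42e-05). vrk-1, a kinase gene of envelope breakdown and rebuilding, and samp-1, of the inner nuclear membrane, averaged 1.53 ± 0.38 and 1.52 ± 0.37 (SD, n = 3). The lower gene was unc-83, which encodes an outer nuclear membrane protein that links nuclei to motors where nuclei migrate, at -0.45 ± 0.21 (adjusted p = 0.0302). Its call ended without preparation 1 or 3 (adjusted p = 0.104 and 0.0922).

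SUMO modification is linked to the pore through Nup358, on which SUMO enzymes gather in vertebrates. Of 8 measured SUMO pathway genes 6 were higher (22% of all genes and features were), and the list median was 0.98 log2. The protease genes ulp-2 and ulp-5 averaged 1.52 ± 0.56 and 1.20 ± 0.25, and uba-2, of the activating enzyme, 1.00 ± 0.58 (SD, n = 3). In mitosis Ran-GTP acts around chromosomes to build the spindle, and of 9 measured spindle assembly genes 8 were higher, with a list median of 1.13. In both lists no gene was lower, by limma or the unmoderated test, at an adjusted or an unadjusted p under 0.05. zyg-9, a microtubule polymerase gene, averaged 1.47 ± 0.19, lin-5, which links dynein to the cortex, 1.73 ± 0.44, and klp-7, a microtubule-depolymerising kinesin gene, 2.36 ± 0.42. The 4 list medians, from 0.80 to 1.13, lay on either side of the 1.05 of the nuclear pore and carrier genes, and no difference between the lists was tested.

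**Figure D4:**
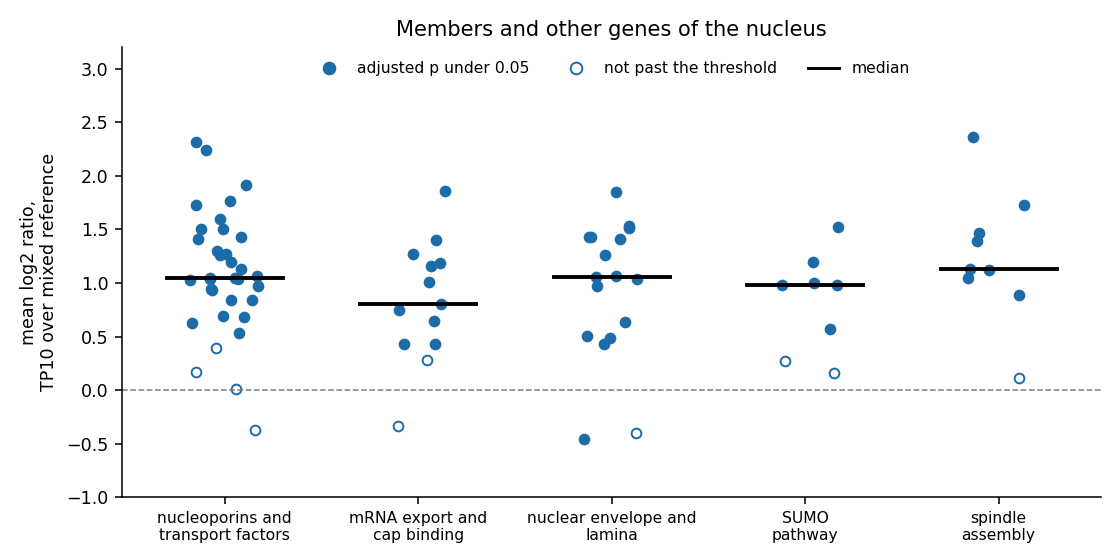
Mean log2 ratio (vertical axis) of the 34 tested nucleoporin and transport factor genes and of the genes of 4 other lists (horizontal axis), with filled points for an adjusted p under 0.05, open points for the rest and a black bar for the median. The medians lie between 0.80 and 1.13, and unc-83 is the 1 filled point below 0.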

How the data were processed

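RNA of 3 preparations of TP10 adult hermaphrodites with embryos was measured against a wild-type mixed reference, which the labels put in channel 1, with TP10 in channel 2. The deposited values are log2 ratios of the 2 channels; the scale was read from the values, because at least 99.98% of them on each array turn into linear ratios with 3 decimals (within 0.01 of the last decimal) when 2 is raised to them. The authors' arrays already had medians of -0.0087, 0.0172 and 0.0101. Background correction, spot filters, normalization and dyes are not given in the sources used here. Spot intensities were not used here, so which features exceeded background is unknown; precision is limited by having 3 arrays.

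Features were named through the platform annotation (15655 with 1 gene, 198 with several and 4147 not listed), and 15569 were matched to RefSeq (assembly WBcel235) for current symbols and chromosomes. Features needed values on 3 arrays (19748), features of a gene were averaged, and each array was centred on its median. For 19300 genes and unnamed features, a mean of 0 was tested two-sided with limma 3.58.1 (lmFit with an intercept, then eBayes; R 4.3.3) and Benjamini-Hochberg adjustment. The fit was tested on simulated data with independent noise on each array, which says nothing of dye bias or of error that preparations share. The reference has no replicate of its own, and any dye bias shared by the arrays is not in the error. Centring hides any shift that most genes share. ima-3, with values on 2 arrays, was left out of the main test. All 35 members were named, and from each other list the 3 largest changes past the threshold and any gene called in the rarer direction. aly-1, anc-1, thoc-3, lpin-1 and smo-1 were named outside this rule. The members, lists and alternatives were chosen with earlier results of these data known. The planned protein and promoter sequence features were not analysed here. Calculations outside R used Python 3.11.15.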

Additional observations from a re-analysis of the deposited data

How the results depend on the processing

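The number of members past the threshold (30, all higher) was 30 or 31 in the 10 settings that kept all 3 preparations, except the unmoderated test: no further centring, centring on the mean, quantile normalization, scaling to one spread, values on at least 2 arrays, separate features, robust eBayes, array weights, and leaving out the 10% of genes with the highest SD (the noisiest genes). Leaving out the noisiest genes selects on the same SD that the test uses as error. The p-values of that setting, here and below, therefore tend to be too small. Without 1 preparation the number of members was 28 to 31 (28 to 30 higher, 0 to 1 lower). The count of lower members was 1, ran-2, with array weights and without the noisiest genes, as without preparation 1. Without the noisiest genes, npp-7 and nxf-1 were not tested and npp-26 passed as higher, so the members counted were not the same. The unmoderated test called 0 members, 0 of them higher, and 0 genes of each of the 4 other lists, higher or lower; over all 19300 it called 1, while 6829 had an unadjusted p under 0.05. mRNA export genes gained 1 lower gene, aly-1, without the noisiest genes. Without 1 preparation, 9 to 10 mRNA export genes were higher (11 with all 3), and 11 to 14 envelope and lamina genes (15 with all 3). Higher SUMO pathway genes then numbered 6 to 7 (6 with all 3) and spindle assembly genes 8, as with all 3. thoc-3 lost its call whichever preparation was left out (adjusted p = 0.0532 to 0.151). lpin-1 (adjusted p = 0.0491) did not pass when scaled (0.0523), weighted (0.0689), with separate features (0.0514) or with values on at least 2 arrays (0.0544). It also did not pass without preparation 1 (0.259) or preparation 2 (0.0881). Lower envelope and lamina genes numbered 2, with anc-1 added to unc-83, after quantile normalization and without the noisiest genes, and 0 to 1 without 1 preparation. npp-26 passed when quantile-normalized (adjusted p = 0.0359), scaled (adjusted p = 0.0499) or without the noisiest genes (adjusted p = 0.0144), with 0.0144 to 0.239 over all alternatives. Signs turned for nxf-1 without preparation 2 (range -0.094 to 0.42 without 1 preparation), for xpo-7 without preparations 2 and 3 (-0.073 to 0.15), for smo-1 without preparation 3 (-0.11 to 0.54, and past the threshold without preparation 1), and for xpo-3 minus xpo-1 when quantile-normalized (0.00069), scaled (0.016), weighted (0.054) or without preparation 1 (-0.11 to 0.13). The first 3 did not pass where their sign turned, nor with all 3 preparations. The cause of these changes was not tested. No paired analysis was possible because the 3 preparations form 1 group.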

Other observations

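The genes next to the members in the RefSeq gene order gave values that the report does not use. The 35 members had 67 different protein-coding neighbours outside the family, of which 60 were tested. Their median was 0.44 log2; 30 of them (50%) were higher and 9 (15%) lower, beside 22% and 21.9% of all genes and features. Neighbours that were higher include gfat-1 beside npp-5 (1.82 ± 0.29), mei-1, a subunit gene of the katanin microtubule-severing enzyme, beside npp-2 (1.77 ± 0.33), and spd-5, a centrosome scaffold gene, beside npp-6 (1.42 ± 0.25; SD, n = 3). Neighbours that were lower include the collagen gene col-84 beside npp-3 (-2.97 ± 0.34) and pamn-1 beside npp-7 (-2.08 ± 0.26). These 5 were chosen after their values were seen. Strand and operon membership are not in the table used, so shared transcripts were not examined.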
